A study of Mus musculus with 22 samples.

Results

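The nuclear genes of the mitochondrial respiratory chain were examined as 97 of the 52636 genes counted in 22 mouse lymphoma libraries. The members were the protein-coding genes whose symbols begin with Nduf (complex I), Sdha to Sdhd (complex II), Uqcr (complex III), Cox4 to Cox8 (complex IV) or Atp5 (complex V). This gave 44 genes for complex I, 8 for complex II, 8 for complex III, 20 for complex IV and 17 for complex V. Assembly factors with these names were kept, and Ndufa4 and its relative Ndufa4l2 were counted with complex IV, where the Ndufa4 protein is known to sit. The rule used names and annotation and no measured value. It left out 13 rows with such names that GENCODE M21 does not list as protein coding, 12 of them processed pseudogenes. The other one was Ndufb1-ps, annotated as a noncoding RNA at a shared promoter but with 10708 counts in all.

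The study compared mouse B cell tumours that the labels class by immunophenotype as MCL-like (resembling mantle cell lymphoma) or non-MCL. All mice were of mixed (129/C57Bl6) strain and carried p53fl/fl;Mb1Cretg/+, that is, p53 alleles removed by a Cre that the B lineage promoter Mb1 drives. The MCL-like and Ccnd2 non-MCL groups also carried R26-Ccnd2tg/tg, a cyclin D2 transgene in the Rosa26 locus, and the p53-only group did not. Primary tumours gave 4 MCL-like libraries from 4 mice, 3 Ccnd2 non-MCL libraries from 3 mice and 7 p53-only libraries from 6 mice. Tumour cells grown in NSG mice, which lack lymphocytes of their own, gave 6 MCL-like transplant libraries from tumours of 4 mice and 2 Ccnd2 non-MCL transplant libraries from 1 mouse. Age was not used here. The p53-only libraries that share a mouse were summed, so the p-values of the primary comparisons measure the spread between mice. In the transplant comparison they measure the spread between mice in the difference of transplant and primary. For the 6 MCL-like transplant libraries the title reads non-MCL while the immunophenotype field reads MCL-like, and the field was followed. Library totals ran from 2693399 to 8146613 counts.

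Oxidative phosphorylation passes electrons from NADH through complex I and from succinate through complex II to ubiquinone, then through complex III and cytochrome c to complex IV, which reduces oxygen. Complexes I, III and IV pump protons out of the mitochondrial matrix, and complex V, the ATP synthase, lets them return to make ATP. Mitochondrial DNA encodes a small core of complexes I, III, IV and V, and the nucleus encodes all other subunits and all of complex II. Activated and malignant B cells use the chain for ATP, for the redox balance needed in aspartate and nucleotide synthesis, and in some lymphomas as a main energy source.

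All 8 B cell markers were detected in every group, and their summed level per mouse was 4845 to 7829 CPM (counts scaled to the same library total) in MCL-like primaries, 4084 to 5933 CPM in Ccnd2 non-MCL primaries, 1769 to 5703 CPM in p53-only primaries and 4275 to 6013 CPM in MCL-like transplants. Erythroid markers, of which 8 of 9 were found, differed widely: their sum was 23535 to 111430 CPM in MCL-like primaries, 4044 to 32493 CPM in Ccnd2 non-MCL primaries, 249 to 38894 CPM in p53-only primaries and 279 to 71979 CPM in MCL-like transplants. Library names carry the prefix TP or oTP, whose meaning the labels do not give. The 5 oTP libraries are p53-only replicates 4 to 7 and Ccnd2 non-MCL replicate 3, so the prefix cannot be told apart from group and tumour site in most comparisons. As to the altered genes, Ccnd2 was at 1181 to 2127 CPM in MCL-like primaries, 451 to 1953 CPM in Ccnd2 non-MCL primaries and 5.49 to 1028 CPM in p53-only libraries. The Ccnd2 non-MCL transplant libraries had only 45.8 and 83.4 CPM, below every other library with the transgene label. Trp53 stayed at or below 17.6 CPM throughout, but tags from its 3′ end need not lie inside the deleted part and check nothing.

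The respiratory chain genes were abundant in all tumours. Over the 22 libraries 61 of 97 members had a mean above 100 CPM, 89 were counted in every library, and 5 had a mean under 1 CPM. CPM were computed from the deposited counts, and each transcript gives tags near its 3′ end, so no length correction applies and levels of different genes are comparable only roughly. By role, mean levels ran from 14.9 to 176 CPM in the 7 nuclear core subunits of complex I, from 3.48 to 432 CPM in its 29 accessory subunits and from 9.60 to 88.8 CPM in its 8 assembly factors. The 11 subunits of complex IV with broad use spanned 105 to 731 CPM, and its 8 tissue forms stayed at or below 26.7 CPM. The 5 genes of the F1 head of ATP synthase spanned 162 to 572 CPM and the 4 stalk genes 105 to 452 CPM. In complex I the highest mean over the 13 primary mice belonged to Ndufa2, an accessory subunit of the peripheral arm, at 393 CPM, and the lowest to Ndufs5, an accessory subunit, at 3.66 CPM. In complex II the iron-sulfur subunit Sdhb led at 285 CPM and the assembly factor Sdhaf3 was lowest at 11.1 CPM. In complex III these were Uqcrh, the hinge protein next to cytochrome c1, at 580.3 CPM and Uqcrb, a small subunit near the ubiquinone site, at 75.4 CPM. Complex IV was led by Cox6a1 at 777 CPM, and complex V by Atp5g3, a copy of the membrane c ring subunit, at 1247 CPM.

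Isoform pairs were resolved sharply in favour of the forms used in most tissues. Cox4i1 had 480.3 CPM over the 13 primary mice, while Cox4i2, its lung and hypoxia-related form, gave a single count in 22 libraries. The liver-type Cox8a had 365 CPM, Cox8b, a heart and muscle form, gave 1 count, and Cox8c gave no count, which allows at most 3 counts over all libraries by counting error alone. Cox7b had 223 CPM, and the testis form Cox7b2 gave 8 counts, all in MCL-like transplant libraries 3, 4 and 5. Cox7a2 had 581 CPM against 3.19 CPM for the muscle form Cox7a1, and Cox7a2l, which helps join complexes III and IV into supercomplexes, had 79.3 CPM. Cox6b1 had 306 CPM and its testis form Cox6b2 7.44 CPM. Ndufa4 had 122 CPM and Ndufa4l2, a hypoxia-induced relative, gave 10 counts in all. The genes of the c ring, whose products are the same mature protein, stood at 86.5 CPM (Atp5g1), 3.36 CPM (Atp5g2) and 1247 CPM (Atp5g3).

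The exception among the tissue forms was Cox6a2, the heart and muscle form of Cox6a. It measured 82.7, 7.92, 437, 0.549, 6.13, 5.19 and 3.5 CPM in p53-only replicates 1 to 7, 2.38, 3.8, 0.633 and 0.537 CPM in MCL-like primaries and 1.49, 0 and 0.491 CPM in Ccnd2 non-MCL primaries. P53-only replicates 1 and 3 were thus far above every other library, and the remaining p53-only libraries overlapped the other groups. Of 8 muscle markers, the p53-only mice summed to 0.998 to 7.77 CPM and the MCL-like primaries to 9.71 to 25.6 CPM. Mb, Myh6, Myh1 and Myh4 had no count in either group. Tnnt3, Acta1, Ckm and Actc1 gave 70, 24, 9 and 1 counts in the p53-only mice. Most of the MCL-like sum was Tnnt3, at a mean of 13.4 CPM. Cox6a2 (GRCm38 chromosome 7, 128205435 to 128206387, minus strand) overlaps Itgad on the opposite strand, and whether strand was used in counting is not given in the sources used here.

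Summed over the members of each complex, the unscaled level was lowest in MCL-like primaries and highest in p53-only primaries in every complex. All 97 genes together summed to 13433 ± 2054 CPM (SD, n = 4) in MCL-like primaries, 18210.2 ± 1269 CPM (n = 3) in Ccnd2 non-MCL primaries and 21146 ± 3565 CPM (n = 6) in p53-only primaries. Complex I gave 4553 ± 436, 5492 ± 287 and 6181 ± 679.5 CPM in that order. Complex II gave 502 ± 65.3, 680.2 ± 160.4 and 829 ± 93.6 CPM. Complex III gave 1357 ± 267, 1789.6 ± 423 and 2147 ± 354 CPM, and complex IV 3309.9 ± 1042, 4789 ± 1015 and 5034 ± 688 CPM. Complex V showed the widest order, at 3711 ± 588, 5459 ± 982 and 6955 ± 1951 CPM. MCL-like transplants lay between the MCL-like and p53-only primaries at 17368 ± 2054 CPM (n = 4 mice) over all members. CPM divide by all counts of a library, so haemoglobin and other abundant RNA lowers them. After TMM scaling, which sets libraries against each other on the bulk of genes, the sums were 14404 ± 3568, 17644 ± 1811 and 20916 ± 3209 CPM, and the MCL-like and Ccnd2 non-MCL values overlapped within 1 SD. In bulk samples fewer cells with a high level and less RNA per cell cannot be told apart.

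**Figure D1:**
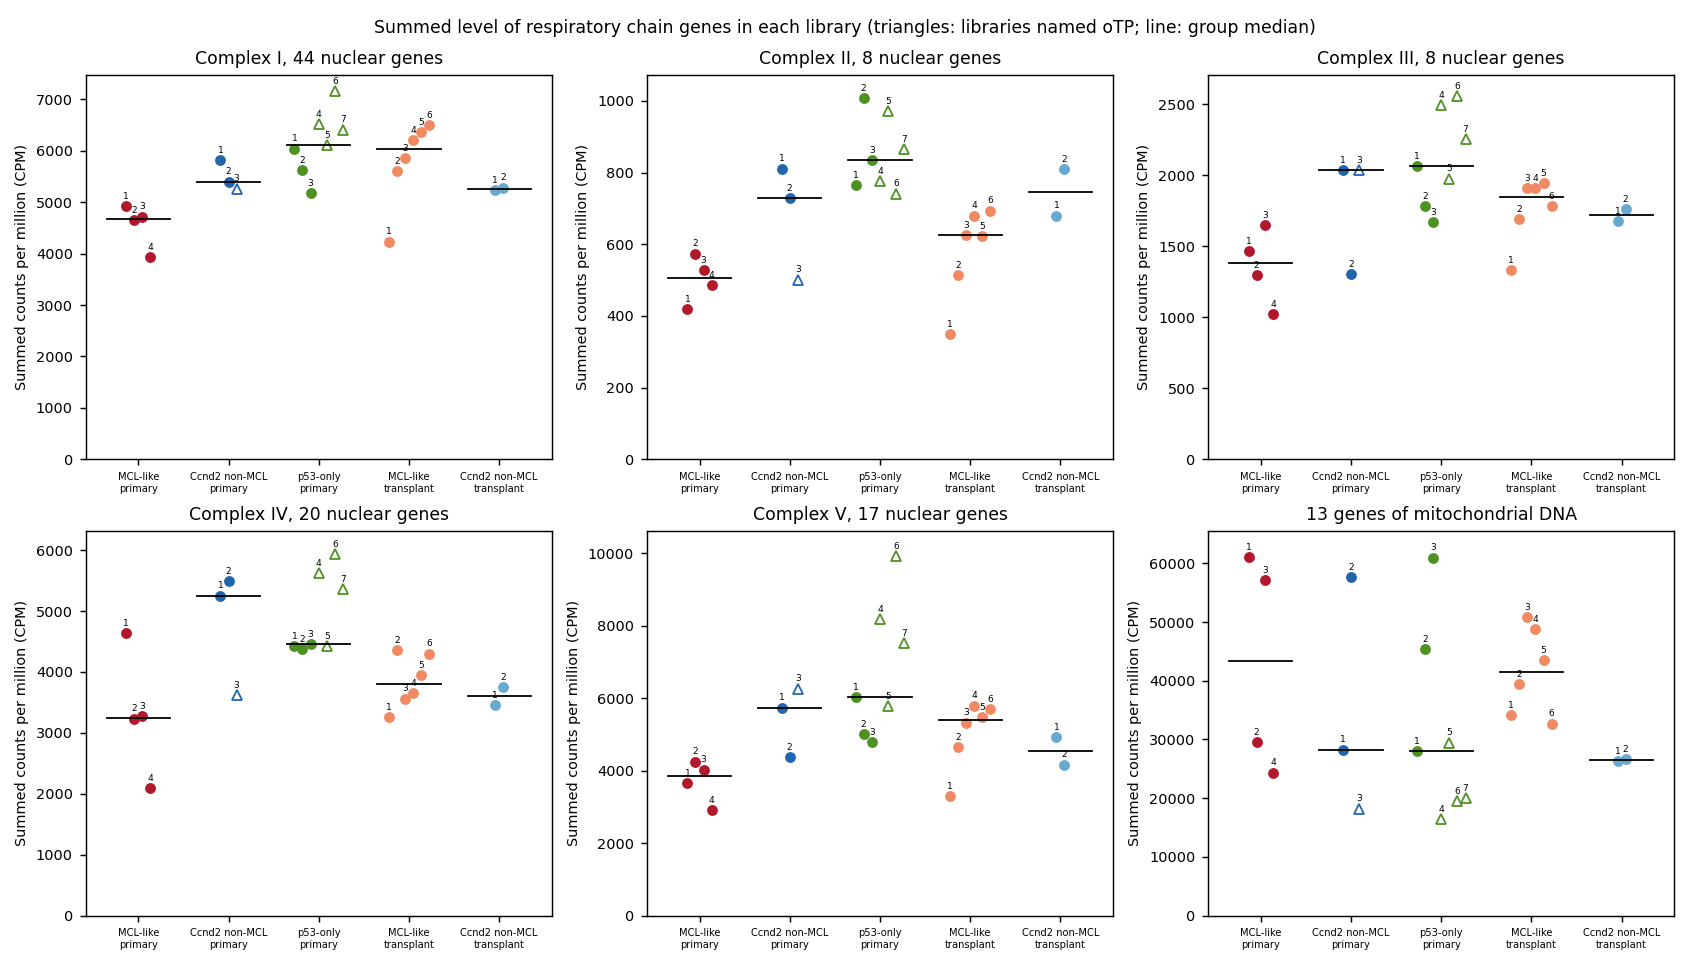
Summed CPM (y axis) of the nuclear genes of complexes I to V and, in the last panel, of the 13 genes of mitochondrial DNA in each of the 22 libraries, by group (x axis). Each point is 1 library with its replicate number, open triangles are libraries named oTP, and the line is the median of the group. Complex V sums to 3711 ± 588 CPM in MCL-like and 6955 ± 1951 CPM in p53-only primary mice, while the mitochondrial DNA genes follow no such order. Among the latter, mt-Co2, mt-Co3, mt-Atp6, mt-Atp8 and mt-Nd4l had almost no counts.

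Single mice stood out. Among the 13 primary mice, MCL-like replicate 4 had the lowest level of 34 of 92 members tested and the highest of none, on the TMM scale, while it was lowest for 6.98% of all genes tested. P53-only replicate 6, a thymoma by its label, had the highest level of 31 of 92 members and was highest for 10.4% of all genes. Ccnd2 non-MCL replicate 2 was lowest for 24 members and highest for 8, against 13.5% and 13.1% of all genes. Ccnd2 non-MCL replicate 3 was lowest for 15 members, beside 8.04% of all genes, and p53-only replicate 1 highest for 17, beside 9.08%.

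**Figure D2:**
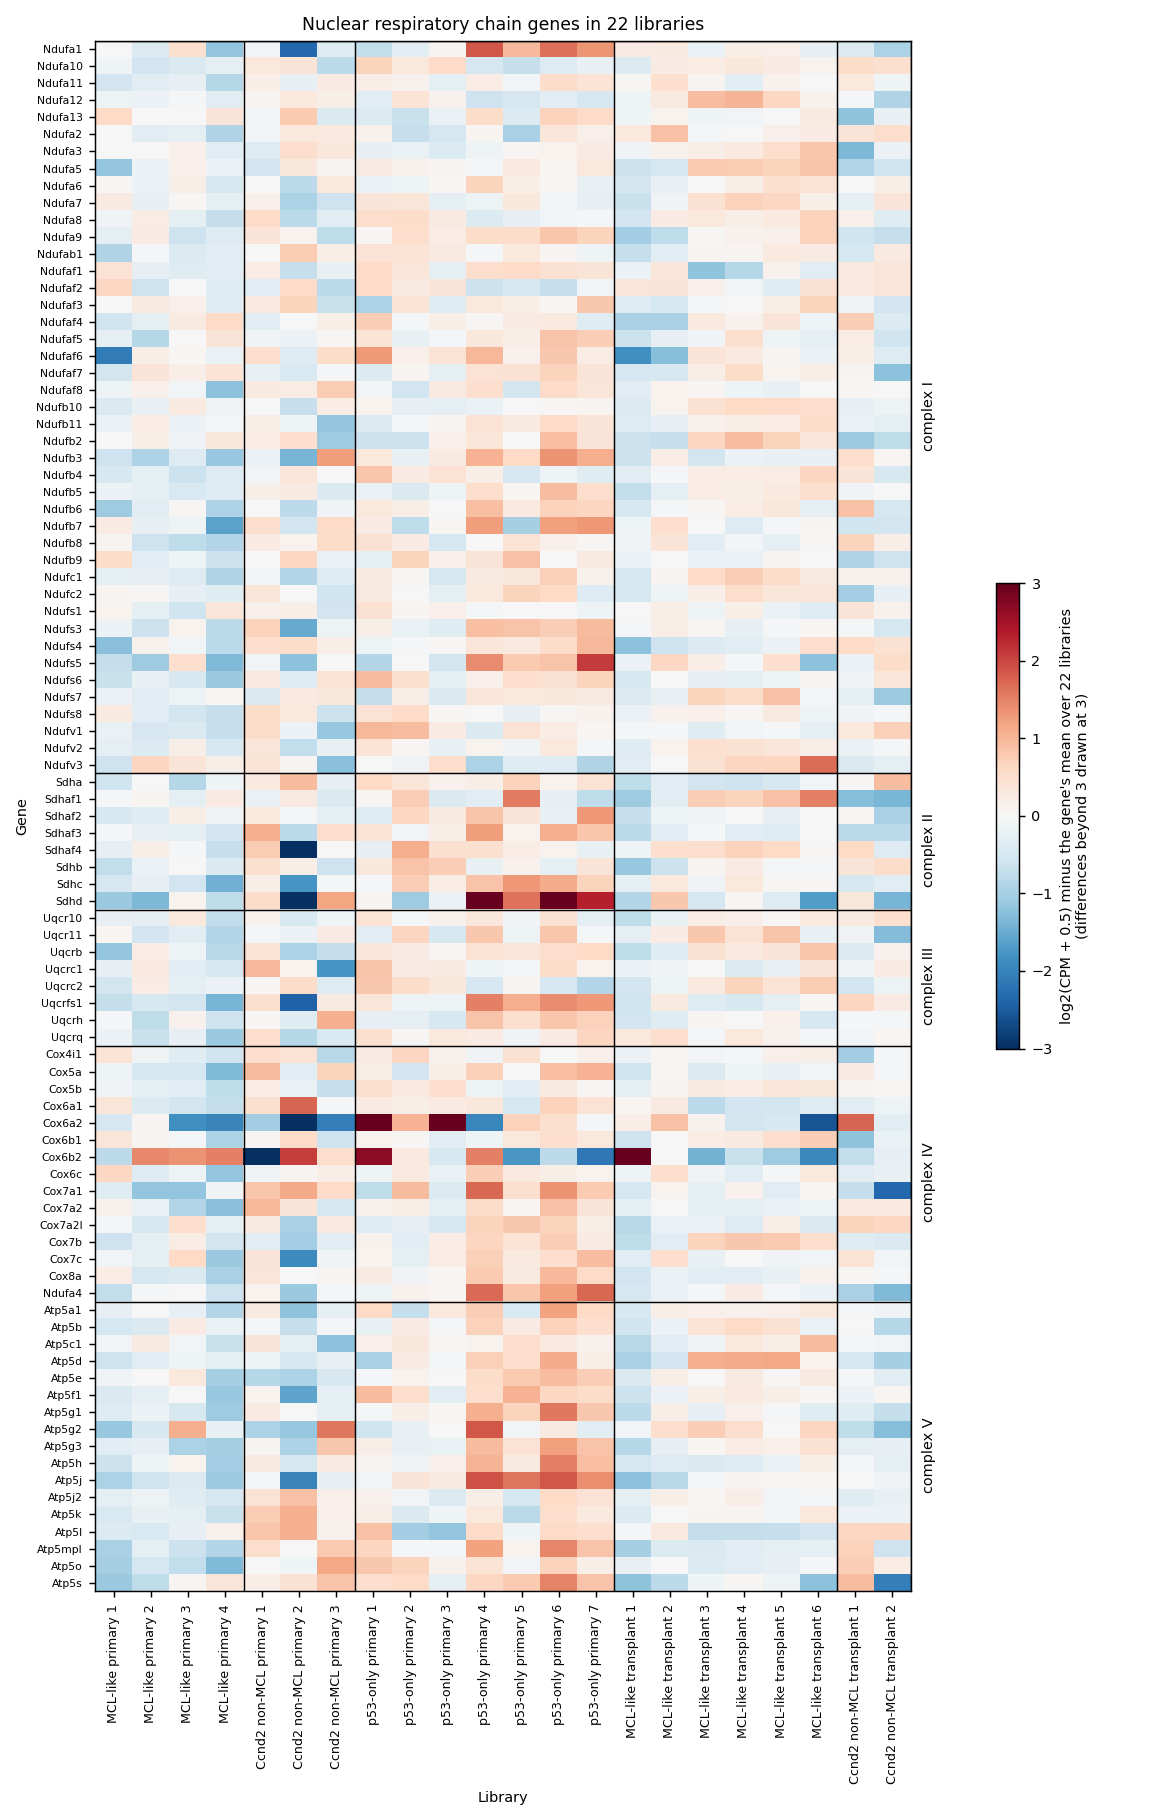
Level of the members shown (rows, by complex) in 22 libraries (columns, by group) as log2(CPM + 0.5) minus the mean of the gene over the libraries, red for higher and blue for lower. MCL-like primary 4 is mostly blue, p53-only primaries 4 to 7 mostly red, and Cox6a2 is red in p53-only primaries 1 and 3.

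MCL-like and Ccnd2 non-MCL primaries share their genotype, so comparing them asks what goes with the MCL-like phenotype. No member passed the test. In edgeR's quasi-likelihood fit of 12967 genes in 13 primary mice (4 against 3), 0 of 92 members tested had an adjusted p under 0.05, where 0.308% of all genes did. At an unadjusted p under 0.05 there were 8 members, or 8.70% beside 16.8% of all genes, and DESeq2 called no member while calling 6.05% of genes. The median log2 fold change was -0.12 over members and -0.04 over all genes, with 35 members above 0 and 57 below. By complex the medians were -0.09 (I), -0.22 (II), -0.20 (III), -0.00 (IV) and -0.31 (V).

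The lowest median was that of complex V. On the TMM scale the groups did not overlap for 7 members, all lower in MCL-like primaries, a share of 7.61% beside 9.06% of all genes lower without overlap. They were Atp5o, Atp5k, Atp5mpl, Atp5j2, Atp5l, Cox7a1 and Ndufb4, of which 5 belong to the ATP synthase. The member share is below that of all genes, so the count is not a result about the members. Of the 17 complex V genes, 6 had a log2 fold change above 0. Cox7a1, at 1.49, 0.633, 0.633 and 1.88 CPM against 4.08, 5.1 and 3.31 CPM, had the lowest fold change, -1.72 ± 0.75 (edgeR adjusted p = 0.261), at a level of few counts. Atp5k, the membrane subunit e that helps ATP synthase form dimers, stood at 336, 394, 383 and 289.6 CPM in the MCL-like mice, and its Ccnd2 non-MCL values were 783, 977 and 514 CPM. Its log2 fold change was -0.98 ± 0.33 (SE), with an edgeR adjusted p of 0.155. Cox6a1, the widely expressed form of a regulatory subunit of complex IV, measured 777, 454, 414 and 369.7 CPM in the MCL-like mice, against 848, 2040.3 and 592 CPM in the others. The fold change of -1.05 ± 0.43 (edgeR adjusted p = 0.233) rests on Ccnd2 non-MCL replicate 2, without which it was -0.31. On the other side, Atp5e, the small epsilon subunit of the F1 head, measured 212, 233, 284 and 115 CPM in the MCL-like mice against 128, 119 and 164 CPM, and its log2 fold change was 0.79 ± 0.36 (edgeR adjusted p = 0.289). Among members with at least 10 CPM in 1 group Atp5e was highest, and Ndufa1, a small membrane subunit needed to assemble complex I, followed at 0.65 ± 0.64, an adjusted p of 0.648. Below that level Cox6a2 had the highest value of all members, 1.78 ± 2.17 (adjusted p = 0.723). The median over members was not stable in sign: it was 0.07 without MCL-like replicate 4 and 0.02 without Ccnd2 non-MCL replicate 1.

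Ccnd2 non-MCL and p53-only primaries have the same immunophenotype label and differ in the transgene. They also differ in part in tumour site and name prefix. The oTP libraries of the p53-only group all carry labels other than spleen, while the oTP library of the Ccnd2 non-MCL group is labelled spleen. Transgene, site and prefix cannot be fully told apart here. Most members were lower in the Ccnd2 non-MCL group, but none passed the test. Of 92 members, 75 had a log2 fold change below 0 and 17 above, with a median of -0.28 beside -0.04 over all genes. The edgeR fit called 0 members and 0% of 12967 genes. At an unadjusted p under 0.05 there were 9 members (9.78%, beside 10.3% of all genes). DESeq2 called 1 member, Cox6a2, lower in Ccnd2 non-MCL primaries, where 0.284% of genes were called lower. The medians by complex were -0.21 (I), -0.38 (II), -0.34 (III, with 0 of 8 above 0), -0.17 (IV) and -0.48 (V).

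On the TMM scale the groups did not overlap for 5 members, all lower in Ccnd2 non-MCL primaries (5.43%, beside 1.98% of all genes). These were Atp5e, Atp5j, Cox7b, Ndufb6 and Ndufaf5. Atp5j, coupling factor F6 in the stalk that holds the ATP synthase head still, measured 78.7, 20.1 and 69.2 CPM in Ccnd2 non-MCL primaries and 77.9 to 311 (median 185, n = 6) CPM in p53-only mice, so its unscaled values just met. Its log2 fold change was -1.80 ± 0.51 (edgeR adjusted p = 0.327), and it ranged from -1.85 to -1.01 in other settings. Atp5e measured 128, 119 and 164 CPM with the transgene and 224 to 439 (median 317, n = 6) CPM without, a log2 fold change of -1.25 ± 0.35 (edgeR adjusted p = 0.319). Atp5e and Atp5j are also among the members high in the p53-only oTP libraries, described below. Cox6a2 had the lowest fitted value, -7.26 ± 2.28 (edgeR adjusted p = 0.361), where p53-only replicates 1 and 3 were the high libraries described above. Without replicate 3 it was -5.06, and leaving out both was not tested. The highest values were Cox6a1 at 0.57 ± 0.40 (adjusted p = 0.619) and Atp5k at 0.54 ± 0.30 (adjusted p = 0.549). Without Ccnd2 non-MCL replicate 2, the value of Cox6a1 turned to -0.10.

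Set against all 9 non-MCL primary mice together, the 4 MCL-like primaries had lower levels of most members, and 2 genes of complex V passed the test. Of 92 members, 73 had a log2 fold change below 0, with a median of -0.37 beside -0.07 over all genes. In this edgeR fit of 12434 genes, 2 of 92 members (2.17%) fell, near the 2.4% of all genes called lower. No member rose, where 3.11% of all genes were called higher. The same 2 were the only members whose groups did not overlap, again near the 2.29% of all genes that were lower without overlap. At an unadjusted p under 0.05 there were 16 members (17.4%, beside 25.0% of all genes). The 4 members that DESeq2 called were Atp5o, Atp5mpl, Sdhd and Cox7a1, where it called 6.63% of genes lower. The medians by complex were -0.24 (I), -0.49 (II), -0.40 (III, 0 of 8 above 0), -0.29 (IV) and -0.55 (V, 1 of 17 above 0). The 4 MCL-like mice are also those of the first comparison, so the results are not independent.

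Atp5o encodes OSCP, the subunit that ties the stalk to the top of the ATP synthase head. It measured 209, 287, 251 and 166 CPM in MCL-like primaries, 415, 381 and 936 CPM in Ccnd2 non-MCL primaries and 455 to 733 (median 563, n = 6) CPM in p53-only mice. Every MCL-like library lay below every other primary library. On the TMM scale this was 244 ± 67.2 CPM (SD, n = 4) against 567 ± 170.4 CPM (n = 9). EdgeR's log2 fold change was -1.16 with an SE of 0.30 and an adjusted p of 0.0384. The gene lies on GRCm38 chromosome 16 (91925214 to 91931687, minus strand). The annotation holds another gene model of this symbol on the same strand, not analysed here, and 2 genes on the opposite strand that overlap it, so its counts are less certain.

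Atp5mpl encodes a small proteolipid in the membrane part of the ATP synthase (chromosome 12, 111961375 to 111966977, minus strand). The MCL-like primaries gave 123, 199, 154 and 131 CPM, the Ccnd2 non-MCL primaries 352, 240.1 and 416 CPM and the p53-only mice 232 to 667 (median 407, n = 6) CPM. Again all 4 MCL-like mice were below the other 9, at 161 ± 39.9 against 383 ± 144 TMM-scaled CPM. The log2 fold change was -1.19 ± 0.31 with an edgeR adjusted p of 0.0415. Both calls are narrow. Without the oTP tumours Atp5o stood at -1.13 (adjusted p = 0.102) and Atp5mpl at -0.85 (0.151). With no low-count filter the adjusted p-values were 0.0578 and 0.0536. With the name prefix as a covariate the adjusted p-values were 0.0867 and 0.122, and in spleen tumours alone 0.181 and 0.306. Leaving out any 1 of the 4 MCL-like mice also ended both calls (0.0584 to 0.124 for Atp5o, 0.0619 to 0.132 for Atp5mpl). So did leaving out p53-only replicate 4 (0.0532 and 0.0608) or 6 (0.0598 and 0.0576), and for Atp5mpl alone p53-only replicate 7 (0.0645) or Ccnd2 non-MCL replicate 3 (0.0533). Without Ccnd2 non-MCL replicate 2, 5 members were called, Uqcrfs1, Atp5j and Ndufb3 among them. In the same mice the sum of 8 proliferation markers, in unscaled CPM, was lower without overlap. It was 1715 to 2613 CPM against 2640 to 3874 CPM in non-MCL mice, but the lowest p53-only library had 2092 CPM. Mki67 went the other way. Its mean was 426.5 CPM in MCL-like primaries, above the p53-only mean (313 CPM) and that of the Ccnd2 non-MCL mice (296 CPM). Ccnb1 was level with the Ccnd2 non-MCL mean, at 95.1 against 94.3 CPM. The means of the other markers were lower than in both non-MCL groups. The erythroid sum reached higher with overlap, at 23535 to 111430 CPM against 249 to 38894 CPM. The part of proliferation and of erythroid RNA in the result was not tested. With haemoglobin, immunoglobulin and mitochondrial DNA genes out of the table the adjusted p-values were 0.0403 and 0.0419.

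Sdhd, the small membrane anchor of complex II that helps bind ubiquinone, had the lowest fold change of all members after Cox6a2. It measured 4.76, 4.01, 11.7 and 6.18 CPM in MCL-like primaries, 16.3, 0.3 and 25.3 CPM in Ccnd2 non-MCL primaries and 9.5 to 96.6 (median 35.8, n = 6) CPM in p53-only mice. The groups overlapped, since Ccnd2 non-MCL replicate 2 had the lowest value of all. The log2 fold change was -2.23 ± 0.93 (edgeR adjusted p = 0.152), and -0.29 without the oTP tumours. It was -4.87 ± 2.15 for Cox6a2 (adjusted p = 0.175). The highest values were those of Ndufv3, an accessory subunit of the NADH-binding module, at 0.52 ± 0.36 (adjusted p = 0.387), and Ndufa13, a membrane-arm subunit also known as GRIM-19, at 0.26 ± 0.29 (adjusted p = 0.607). Ndufa13 turned to -0.02 without MCL-like replicate 1.

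**Figure D3:**
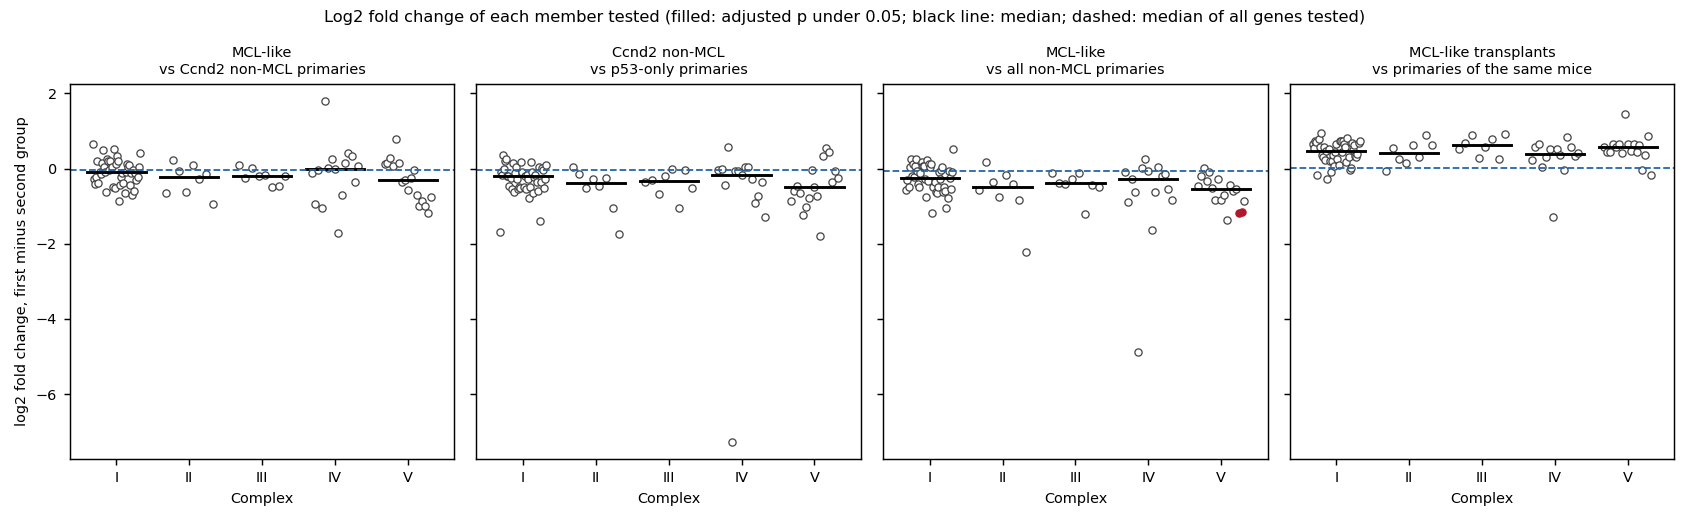
Log2 fold change (y axis) of each member tested, by complex (x axis), in the 4 comparisons. Filled points passed an adjusted p under 0.05, black lines are medians of each complex and the dashed line is the median of all genes tested. Only Atp5o and Atp5mpl, in MCL-like against all non-MCL primaries, are filled, and most points lie above 0 in the transplant panel.

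A fixed set of 10 subunits was read in the 3 comparisons of primary tumours, whatever its values. Ndufs1, the largest iron-sulfur subunit of complex I, had 111, 85.7, 67.7 and 132 CPM in the MCL-like primaries, 114, 116 and 68.9 CPM in the Ccnd2 non-MCL primaries and 91.9 to 140.3 (median 105, n = 6) CPM in the p53-only mice, with log2 fold changes of 0.10, -0.17 and 0.04 in the 3 comparisons in the order given. Ndufv1, which holds the NADH site, gave -0.22, -0.53 and -0.53. Sdha, the flavoprotein of complex II, gave -0.66, 0.05 and -0.57, and Sdhb -0.29, -0.26 and -0.42. In complex III, the core protein Uqcrc1 gave -0.20, -0.20 and -0.28, and Uqcrfs1 -0.49, -1.06 and -1.21. In complex IV, Cox4i1 gave -0.12, -0.05 and -0.09, and Cox5a, a subunit on its matrix side, -0.94, -0.02 and -0.89. The alpha and beta subunits of the ATP synthase head, Atp5a1 and Atp5b, gave 0.11, -0.88 and -0.46, and 0.15, -0.60 and -0.21. None had an edgeR adjusted p under 0.05 in any of the 3 comparisons; the lowest was 0.117 for Cox5a against all non-MCL primaries, where MCL-like primaries measured 257, 198, 199.7 and 115 CPM, Ccnd2 non-MCL primaries 555, 229 and 458 CPM and p53-only mice 224 to 591 (median 400.1, n = 6) CPM.

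The oTP libraries of the p53-only group stood apart for a subset of members, a pattern noticed after the values were seen. In this group the TP libraries are all labelled spleen, and the oTP libraries are labelled mediastinal lymphoma, thymoma or lymphoma. Prefix and tumour site therefore cannot be told apart within the group. In 10 of 92 members (10.9%) all 4 p53-only oTP libraries lay above all 18 other libraries, beside 3.47% of all genes, and in no member did they lie below all others, beside 0.941% of all genes. They included Ndufa1, Ndufs3, Ndufs5, Sdhd, Uqcrfs1, Ndufa4, Atp5e, Atp5g1 and Atp5j, so each complex was represented. Ndufa1 (chromosome X, 37187588 to 37191163, minus strand) measured 422, 225, 362 and 287 CPM in them and at most 161 CPM elsewhere. Uqcrfs1, the Rieske iron-sulfur protein that takes electrons from ubiquinol (chromosome 13, 30540308 to 30545362, minus strand), measured 277, 208, 258 and 241 CPM, and at most 151 CPM elsewhere. Atp5j (chromosome 16, 84827866 to 84835625, minus strand, overlapping Gabpa on the opposite strand) measured 311, 250.3, 298 and 216 CPM, against at most 107 CPM. Sdhd (chromosome 9, 50596357 to 50603812, minus strand) measured 90.6, 34.7, 96.6 and 56.8 CPM, against at most 25.3 CPM. The highest other library for Sdhd was Ccnd2 non-MCL replicate 3, which is also named oTP but is labelled spleen. That library was not high for Atp5j (69.2 CPM) or Ndufa1 (88.3 CPM).

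P53-only replicates 2 and 5 allow a look inside 1 mouse, since both came from it, replicate 2 from the spleen with the prefix TP and replicate 5 from a lymphoma with the prefix oTP. Of 92 members, 7 were more than 2-fold higher in replicate 5 and 1 more than 2-fold lower, beside 13.2% and 11.8% of all genes. Those higher included Cox7a2l, Ndufs3, Atp5j, Uqcrfs1, Ndufa1 and Sdhd, and the lower one was Cox6b2. Members of the subset above had to be higher in replicate 5 than in replicate 2, since the subset was defined so, and their values here are a description and no independent support. Atp5j went from 107 to 250.3 CPM, Uqcrfs1 from 86.8 to 208 CPM, Ndufa1 from 92.8 to 225 CPM and Sdhd from 4.95 to 34.7 CPM, on 30 and 102 counts. Both libraries come from a mouse of the p53-only group, so genotype does not differ between them, but tumour site and prefix change together and cannot be told apart.

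**Figure D4:**
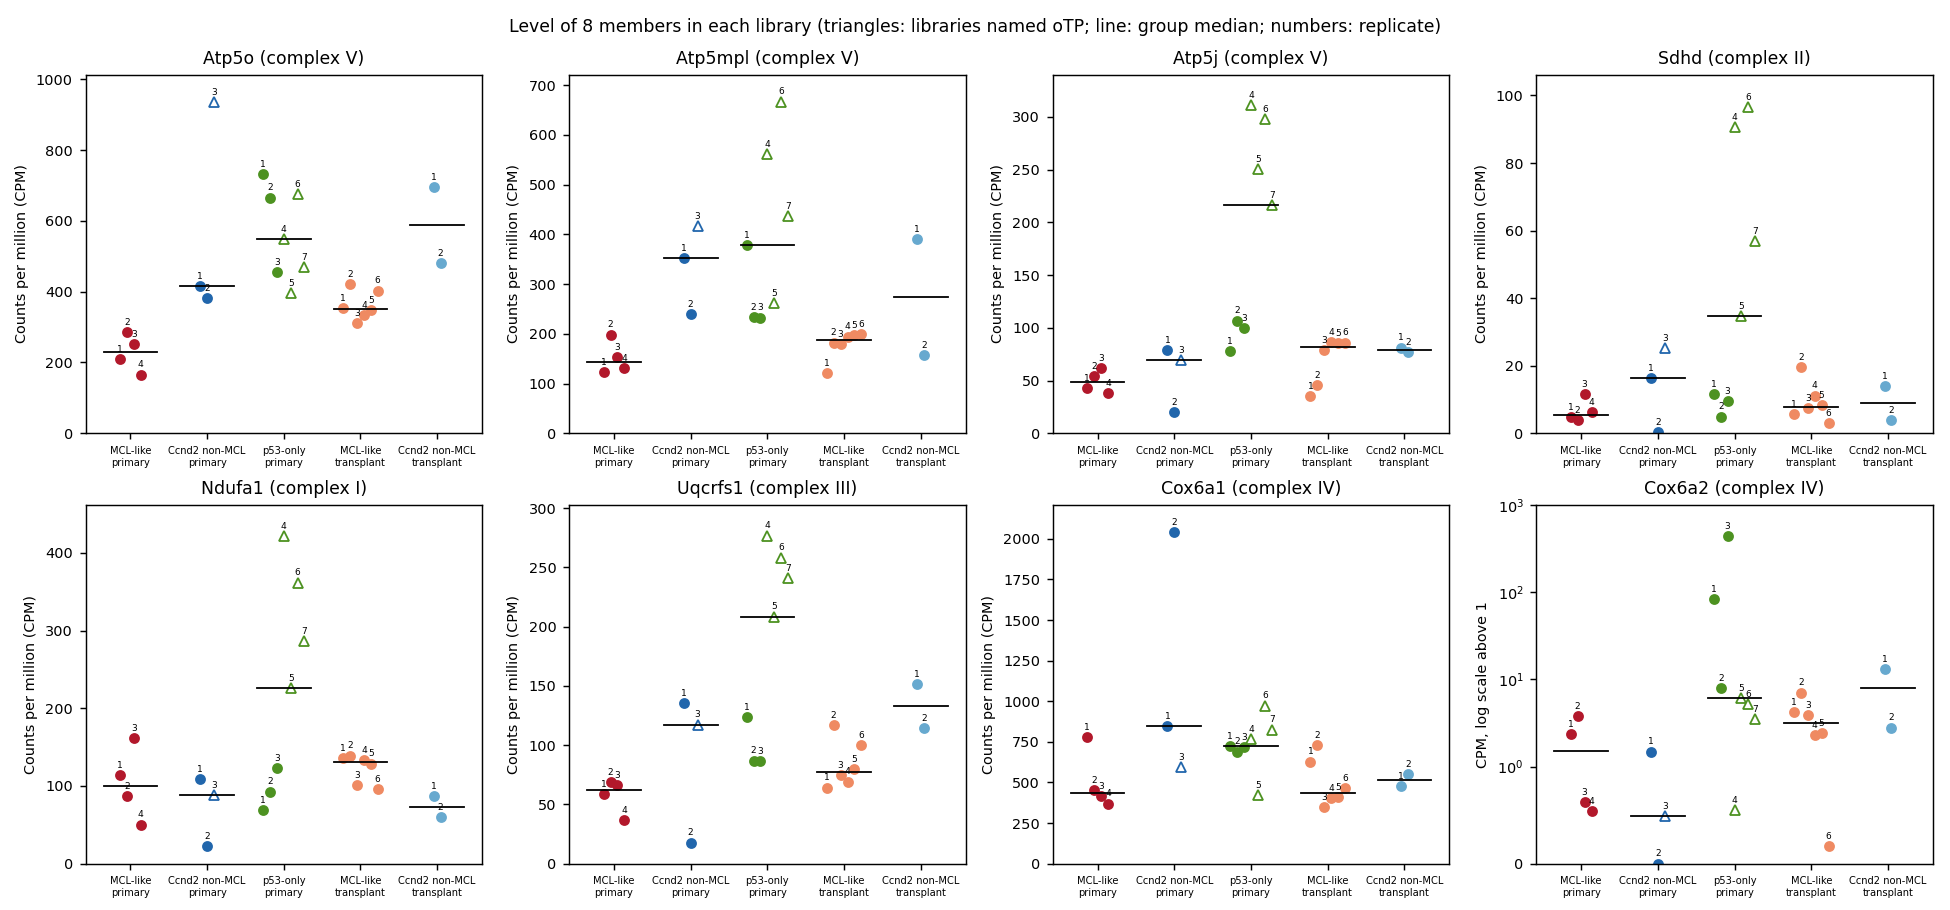
CPM (y axis) of 8 members in each of the 22 libraries, by group (x axis), with replicate numbers, open triangles for libraries named oTP and a line at the group median. Cox6a2 has a log axis above 1. For Atp5o and Atp5mpl the MCL-like primaries lie below the other primaries, for Atp5j, Sdhd, Ndufa1 and Uqcrfs1 the p53-only triangles lie on top, and Cox6a2 is high in p53-only 1 and 3.

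Sequence elements known from respiratory gene promoters were searched in the RefSeq promoter windows (build GRCm38.p6, 250 bases before to 50 after the start). Windows were found for 80 of 97 members, 78 by symbol and 2 by gene ID. On either strand, GCGCATGCG, the core bound by NRF1, occurred in 10 members (12.5%), beside 1.95% of all 27018 genes with a window. CCGGAAG, the core of ETS factors such as GABPA, occurred in 21 (26.2%, beside 9.93%). AAGATGGCG, the core of YY1, occurred in 8 (10%, beside 1.64%), and TATAAA in 8 (10%, beside 15.7%). Of the 80 members 47 held none of the first 3 and 6 held at least 2. The YY1 core was in 6 of 39 complex I members with a window and 2 of 15 of complex V, and the ETS core in 5 of 7 of complex II and 6 of 39 of complex I.

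The 250 bases before the start are shown for members the results turn on: Atp5o, called in 1 comparison, Atp5j, Sdhd, Ndufa1 and Uqcrfs1, high in the p53-only oTP libraries, and Cox6a1, which holds both an NRF1 and an ETS core. Sequences run 5′ to 3′ on the minus strand, the strand of each gene, with matched cores in capitals. The window of Atp5o is chr16:91931631-91931880, and those of Atp5j (the second of 2 starts), Sdhd, Ndufa1, Uqcrfs1 and Cox6a1 are chr16:84834977-84835226, chr9:50603850-50604099, chrX:37191239-37191488, chr13:30545317-30545566 and chr5:115348959-115349208.

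Atp5o: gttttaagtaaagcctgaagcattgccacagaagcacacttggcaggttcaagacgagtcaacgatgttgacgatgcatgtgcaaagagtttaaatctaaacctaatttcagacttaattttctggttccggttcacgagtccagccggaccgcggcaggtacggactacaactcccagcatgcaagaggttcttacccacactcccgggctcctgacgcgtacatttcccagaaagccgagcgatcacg
Atp5j: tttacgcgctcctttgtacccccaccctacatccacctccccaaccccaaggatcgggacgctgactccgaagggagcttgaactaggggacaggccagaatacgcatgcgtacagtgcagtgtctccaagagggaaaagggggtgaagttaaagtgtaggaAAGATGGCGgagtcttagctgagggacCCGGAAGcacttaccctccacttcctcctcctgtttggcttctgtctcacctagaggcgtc
Sdhd: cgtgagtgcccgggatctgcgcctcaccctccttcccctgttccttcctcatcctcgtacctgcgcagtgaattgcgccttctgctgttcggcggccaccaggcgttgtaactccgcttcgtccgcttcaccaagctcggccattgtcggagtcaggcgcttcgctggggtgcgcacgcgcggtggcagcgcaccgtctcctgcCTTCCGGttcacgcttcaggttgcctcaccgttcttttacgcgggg
Ndufa1: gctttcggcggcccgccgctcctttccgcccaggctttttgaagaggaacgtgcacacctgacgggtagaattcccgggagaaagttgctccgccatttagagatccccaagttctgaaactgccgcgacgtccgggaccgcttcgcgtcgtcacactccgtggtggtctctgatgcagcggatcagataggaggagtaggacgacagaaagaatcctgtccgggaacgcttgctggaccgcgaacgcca
Uqcrfs1: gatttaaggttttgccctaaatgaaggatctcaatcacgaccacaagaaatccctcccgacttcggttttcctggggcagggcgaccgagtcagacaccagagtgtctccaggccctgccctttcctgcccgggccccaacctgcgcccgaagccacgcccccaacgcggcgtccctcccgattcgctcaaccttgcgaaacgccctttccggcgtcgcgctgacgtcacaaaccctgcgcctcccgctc
Cox6a1: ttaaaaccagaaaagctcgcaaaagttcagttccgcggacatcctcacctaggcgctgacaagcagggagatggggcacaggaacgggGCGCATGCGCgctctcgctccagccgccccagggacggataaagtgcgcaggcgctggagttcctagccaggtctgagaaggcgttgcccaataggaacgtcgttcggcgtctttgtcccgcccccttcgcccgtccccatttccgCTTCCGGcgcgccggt

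Atp5j has another window, chr16:84835626-84835875, directly upstream of the annotated start of the gene at 84835625, and it holds none of the cores. The Atp5j window shown lies inside the annotated gene. In the Atp5j window shown the YY1 core lies 88 to 80 bases and the ETS core 61 to 55 bases before the start. In Sdhd the ETS core lies on the other strand, 46 to 40 bases before it. Cox6a1 has overlapping NRF1 cores on both strands, 162 to 153 bases before, and an ETS core on the other strand, 16 to 10 bases before. The windows of Atp5o, Ndufa1 and Uqcrfs1 hold none of the 4. The members high in the p53-only oTP libraries thus include promoters with and without these cores. A match describes the letters and does not show that a factor binds.

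MCL-like tumours transplanted into NSG mice were compared with the primary tumours of the same 3 mice, with the mouse as a block. Most members were higher in the transplants, and none passed the test. Of 90 members tested, 81 had a log2 fold change above 0, and the median was 0.50 beside 0.01 over all genes. EdgeR called 0 members and 0% of 12020 genes, with 11 members at an unadjusted p under 0.05 (12.2%, beside 5.46% of all genes), and DESeq2 called no member and 0.177% of genes. In 29 of 90 members (32.2%) the transplant was higher in all 3 mice, beside 14.2% of all genes, and in 2 members, Ndufaf1 and Sdha, it was lower in all 3 (2.22%, beside 14.98%). The 29 included 16 genes of complex I, 4 of 8 of complex III, 7 of complex V and only 1 each of complexes II and IV. Medians by complex were 0.47 (I), 0.42 (II), 0.62 (III, 8 of 8 above 0), 0.39 (IV) and 0.56 (V).

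The mice were not alike. In the mouse of primary 4 the TMM-scaled sum over all members was 8347 CPM in the primary and 18379 CPM in the transplant, with 84 of 90 members higher. In the mouse of primary 2 it was 14201 and 19855 CPM, with 76 of 90 higher. In the mouse of primary 1 it was 16987 and 15064 CPM, with 38 of 90 higher. The TMM factor, by which values are divided, was 1.26 for primary 4 and 0.970 for its transplant. The scaling therefore widened the gap in that mouse. The shares of all genes higher in the transplant were 49.6%, 52.0% and 47.4% in the mice of primaries 4, 2 and 1, near an even split. Primary 1 is labelled a mesenteric lymphoma, and its transplants are from the spleen. Primaries 2 and 4 and their transplants are all labelled spleen. The tumour site thus changes only in the mouse of primary 1, and its part in the result was not tested. Transplant library 1, from the mouse of primary 1, had the highest erythroid sum of all libraries, at 119507 CPM, while library 2 of the same mouse is summed with it. Marker sums of macrophages, of T cells and of stroma and endothelium were lower in transplants, here over all mice of each group and not the paired mice alone. All 8 macrophage markers were found, and their sum was 211 to 513 CPM in the transplants of 4 mice against 555 to 1254 CPM in the 4 primaries, without overlap. The 8 T cell markers summed to 32.1 to 83.0 CPM against 76.1 to 303 CPM, and the 7 stroma and endothelium markers to 66.4 to 197 CPM against 129 to 301 CPM, both with overlap. Within these lists, the means of Cd14 (4.48 against 2.04 CPM) and Kdr (6.39 against 4.93 CPM) were higher in transplants. C1qa was nearly level, at 64.5 against 68.7 CPM, and the means of the other markers were lower. No marker of these lists was at 0 in either group as a whole, and the part of these cells and of the erythroid RNA in the result was not tested. The B cell marker sum was lower in transplants too, at 4275 to 6013 CPM against 4845 to 7829 CPM, with overlap. Within that list the means of Pax5 and Cd74 were higher in transplants. Without the mouse of primary 4 the median over members dropped to 0.15, and without the mouse of primary 1 it was 0.76.

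Ndufa5, an accessory subunit of the arm of complex I that faces the matrix, had the highest fold change among members with at least 10 CPM. It measured 55.0, 109.7 and 109 CPM in primaries 1, 2 and 4, and 78.7, 85.6, 211, 209, 196 and 223 CPM in transplants 1 to 6, of which 1 and 2 belong to the mouse of primary 1, 3 and 4 to that of primary 4, and 6 to that of primary 2. The transplant was above its own primary in all 3 mice. The log2 fold change was 0.96 ± 0.30 (unadjusted p = 0.0119, edgeR adjusted p = 0.820). Uqcrq, a small subunit of complex III, went from 289.9, 206 and 150.4 CPM to 403, 466, 317, 407, 353 and 318 CPM, also higher in all 3 mice, with a log2 fold change of 0.92 ± 0.35 (adjusted p = 0.820). Atp5o, low in the MCL-like primaries, gave 0.88 ± 0.32 (adjusted p = 0.820), and its transplants measured 354, 421, 311, 334, 349 and 403 CPM. The lowest values were those of Cox6b2, at -1.29 ± 2.30 with a sign that changed between settings and with 48.8 and 3.39 CPM in the transplant libraries 1 and 2 of 1 mouse, and Ndufaf1, an early assembly factor of complex I, at -0.28 ± 0.43.

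The Ccnd2 non-MCL transplants came from 1 mouse and entered no test. Their libraries summed to 15972 and 15775 CPM over all members, below the Ccnd2 non-MCL primaries' mean and inside the range of the MCL-like transplant libraries, 12476 to 18987 CPM. Although the sums were close, 10 of 92 members were more than 2-fold lower in library 2 and 2 more than 2-fold higher, beside 20.3% and 9.86% of all genes. Atp5mpl was at 389.7 and 158 CPM in this pair, on 1473 and 620 counts, a gap as wide as that between the groups in the primary tumours. Cox4i1 went the other way, at 217 and 442 CPM.

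**Figure D5:**
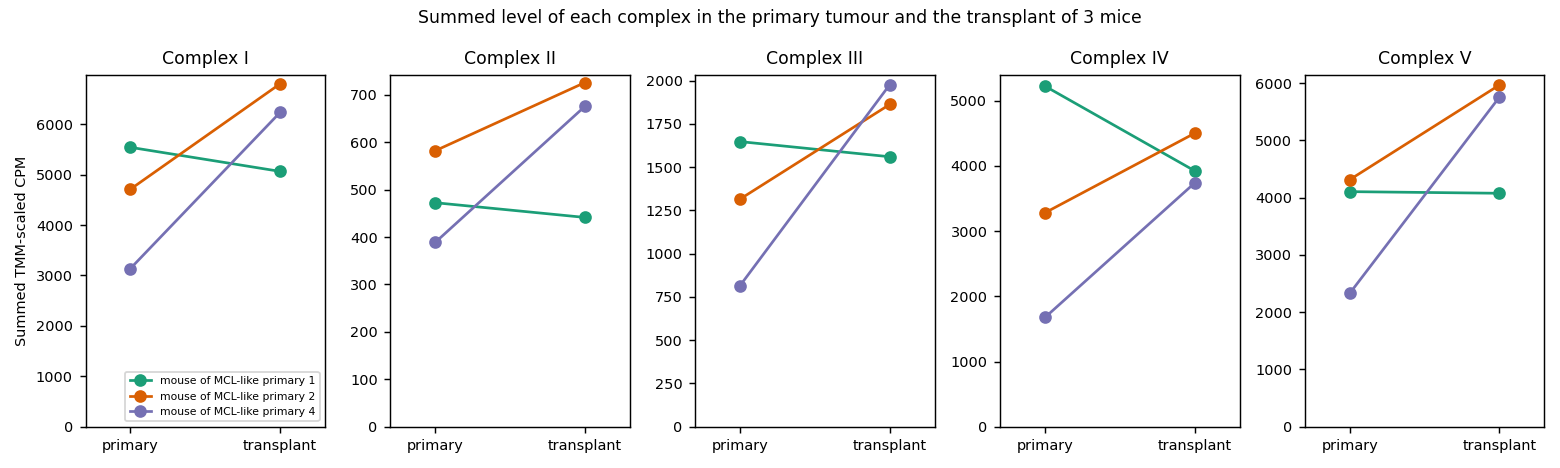
Summed TMM-scaled CPM (y axis) of each complex in the primary tumour and the transplant (x axis) of 3 mice, each line being 1 mouse. The lines of the mice of primaries 2 and 4 go up in every complex, and that of primary 1 stays level or goes down.

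Genes that work with the chain were taken from lists written by hand. The 13 subunit genes of mitochondrial DNA, 8 of them testable, gave 0 calls by edgeR in every comparison. At an unadjusted p under 0.05 there were 0, 1, 0 and 1, and DESeq2 called 0, 1, 0 and 0. Their medians were 0.49, -0.12, 0.36 and 0.35 in the comparisons in the order described. In MCL-like primaries against all non-MCL primaries their median thus had the opposite sign to the nuclear members. The genes mt-Co2, mt-Co3, mt-Atp6, mt-Atp8 and mt-Nd4l had at most 8 counts in any group, so neither these medians nor the summed level speak for them. The list of 14 electron carrier genes covered ubiquinone synthesis, cytochrome c, the electron transfer flavoprotein genes Etfa, Etfb and Etfdh, and Cyc1. Cyc1 encodes cytochrome c1, a subunit of complex III that the naming rule did not take as a member. Of these 14 genes, 1 fell in MCL-like primaries against all non-MCL primaries, where 2.4% of all genes did. It was Coq7, a hydroxylase of ubiquinone synthesis, at 17.7 ± 6.71 against 132 ± 122 TMM-scaled CPM. Its log2 fold change was -2.83 ± 0.72 (edgeR adjusted p = 0.0369). Of 16 genes of the citric acid cycle and its entry, which feed the chain, 2 fell in the same comparison, against the same 2.4% of all genes. Mdh2, mitochondrial malate dehydrogenase, was at 276 ± 38.8 against 630.3 ± 178 CPM (-1.13 ± 0.26, adjusted p = 0.0267), and Pdha1, a subunit of pyruvate dehydrogenase, at 47.1 ± 19.97 against 104 ± 27.9 CPM (-1.08 ± 0.30, adjusted p = 0.0473). The 37 other assembly factors and the 16 regulators of mitochondrial gene expression gave 0 calls by edgeR in all 4 comparisons, with medians of -0.34 and -0.33 for MCL-like against all non-MCL primaries. In that comparison an unadjusted p under 0.05 was found for 7 of 35 assembly factors tested, 1 of 15 regulators, 6 of 14 electron carrier genes and 5 of 16 citric acid cycle genes, beside 25.0% of all genes. DESeq2 called 1, 1, 2 and 4 genes of these lists in the same order, beside 11.8% of all genes in either direction.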

How the data were processed

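The authors deposited raw counts per Ensembl gene for QuantSeq 3′ mRNA libraries (reverse kit) made from RNA of fresh primary lymphoma cells, per the labels' protocols. Per the submitters' processing notes STAR, FastQC and GRCm38 were used. Which tool counted reads, with which strand setting and annotation, is not given in the sources used here. Of 52636 gene IDs, 52489 matched GENCODE M21. Library totals were 3159419 to 4739716 in MCL-like primaries, 2693399 to 8146613 in Ccnd2 non-MCL primaries, 2936387 to 6057077 in p53-only primaries, 3050785 to 5825652 in MCL-like transplants and 3780128 to 3934589 in Ccnd2 non-MCL transplants. All 231 library pairs differed by more than sampling noise, with a chi-square over its degrees of freedom of at least 5.355.

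Counts of libraries from 1 mouse (replicates 2 and 5 of the p53-only group, and transplants 1 with 2 and 3 with 4) were summed. edgeR 4.0.16 (R 4.3.3) was used with filterByExpr, TMM scaling, robust quasi-likelihood fits and Benjamini-Hochberg adjustment over all genes tested, and a call is an adjusted p under 0.05. The first 2 comparisons share a fit of 13 primary mice, MCL-like against all 9 other primary mice was fitted on its own, and transplants were fitted with the mouse as a block over 3 mice. A positive log2 fold change means higher in the group named first. The SE was taken from each fold change and the F statistic of its test. The labels give the pairing of transplant and primary, and deviations of each primary and its own transplant correlated at 0.2314, 0.2431 and 0.3586 over 12020 genes. The scripts were tested on simulated data. The alternatives were DESeq2 1.42.0, limma-voom (limma 3.58.1), no low-count filter, library size scaling, other sets of genes or samples, the name prefix as a covariate and leaving out each mouse.

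Named were a fixed set of 10 subunits, called members, and the 2 highest and 2 lowest fold changes per comparison (10 CPM or more in 1 group). Also named were the highest and lowest mean of each complex, isoform sets, and called genes of the other lists. Single genes in the p53-only oTP pattern, the same-mouse pair and the counts of groups without overlap were chosen after their values were seen. The members and lists were chosen with earlier results of these data known.

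Promoter windows came from RefSeq (GRCm38.p6). No window matched 17 members, among them Ndufa2, Ndufaf6, Ndufb9, Ndufs1, Sdhc, Uqcrb, Uqcrc2, Uqcrq, Cox4i1, Cox4i2, Cox6a2, Cox6c, Cox8c, Ndufa4l2, Atp5a1 and Atp5mpl. Cox4i2, Cox7b2, Cox8b, Cox8c and Ndufa4l2 did not pass the low-count filter in any comparison, and Cox7a1 and Ndufs5 did not in the transplant comparison. Members that passed are therefore not all members. The values of 1 member are not reported here, though it is part of the counts and sums.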

Additional observations from a re-analysis of the deposited data

Results flagged for a closer look

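In groups of 4 or 6 mice, 9 of 135 tests found a mouse whose gap to the nearest other exceeded Dixon's critical value, and chance alone flags about 1 in 20. The MCL-like transplant of the mouse of primary 1 stood apart 3 times. Its complex V sum was 3890.3 CPM where the other transplants had 5469 to 5705 CPM, its Atp5j was 39.7 CPM against 82.6 to 85.9 CPM, and its Cox6b2 was 28.9 CPM against 0.539 to 1.47 CPM. MCL-like primary 1 had 1.78 CPM of Cox6b2, where the other 3 had 9.50 to 10.7 CPM, and the high transplant value of this mouse came from 1 of its 2 libraries, at 48.8 CPM (222 counts) in library 1 and 3.39 CPM (12 counts) in library 2. The same primary had 14.3 CPM of Ndufaf1, against 7.91 to 8.65 CPM in the others. The transplant with replicate number 6 had 137 CPM of Uqcrc1, against 88.7 to 94.8 CPM. In the p53-only group, replicate 3 had 437 CPM of Cox6a2 (0.549 to 82.7 CPM in the others) and 8.35 CPM of Ndufaf1 (13.8 to 15.7 CPM), and replicate 4 had 10.7 CPM of Atp5g2 (1.52 to 3.19 CPM).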

How the results depend on the processing

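The median log2 fold change over members kept its sign in all 19 alternatives for Ccnd2 non-MCL against p53-only primaries, in all 22 for MCL-like against all non-MCL primaries and in all 10 for the transplants, and in 15 of 17 for MCL-like against Ccnd2 non-MCL primaries. Counts of calls depended on the setting, and the cause was not tested. For MCL-like against Ccnd2 non-MCL primaries, 40 genes were called in the fit reported. DESeq2 called 888, limma-voom 17, the table without haemoglobin, immunoglobulin and mitochondrial DNA genes 21, libraries kept apart 13, the prefix as a covariate 19, tumours without oTP 552, spleen tumours 116 and the 2 groups alone 371. Leaving out a mouse gave 0 to 42 genes, and a member median of -0.1922 to 0.0661. For Ccnd2 non-MCL against p53-only primaries, with 0 genes called, DESeq2 called 134 and 1 member, no low-count filter 2, limma-voom 1, the prefix as a covariate 1, tumours without oTP 116 and spleen tumours 41. Leaving out a mouse gave 0 to 8 genes and a median of -0.4375 to -0.2153, and Cox6a1 ranged from -0.1038 (without Ccnd2 non-MCL replicate 2) to 0.9122. For MCL-like against all non-MCL primaries, with 685 genes and 2 members called, DESeq2 called 1809 genes and 4 members, the prefix as a covariate 224 and 0, tumours without oTP 246 and 0, spleen tumours 39 and 0, and no low-count filter 0 members. Leaving out a mouse gave 176 to 1065 genes, 0 to 5 members and a median of -0.4993 to -0.2634, and Ndufa13 ranged from -0.0178 (without MCL-like replicate 1) to 0.356. For the transplants, with 0 genes called, DESeq2 called 27 and no low-count filter 35. Leaving out a mouse gave 0 to 14 genes and a median of 0.1506 to 0.7626. Cox6b2 changed sign, at 0.4752 with limma-voom, 0.1571 with all 4 primary and 4 transplant mice, and -3.2315 to 0.6825 with a mouse left out. Without the replicate block the transplant median was 0.45 with 0 genes and 0 members called, Cox6b2 was 0.6284, and the block changed no other call. The complex I sum in MCL-like over Ccnd2 non-MCL primaries was -0.27 (log2), -0.1311 on the TMM scale and -0.1489 with haemoglobin, immunoglobulin and mitochondrial DNA genes out of the total. Library size scaling moved the median of all genes to -0.16, -0.22 and -0.10 for MCL-like against Ccnd2 non-MCL, MCL-like against all non-MCL and transplants against primaries, and that of members to -0.26, -0.54 and 0.39. Members of few counts, such as Cox7a1, Cox6b2 and Sdhd, are limited by depth. Groups of 3 and 4 mice limit every test.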
